A study of Mus musculus with 12 samples.

Results

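The 8 genes described here make, bind or break down the endocannabinoids of the brain. They were chosen by name: Cnr1, the cannabinoid CB1 receptor; Dagla and Daglb, the diacylglycerol lipases that make 2-arachidonoylglycerol (2-AG); Napepld, a phospholipase D that makes anandamide; Mgll, Abhd6 and Abhd12, hydrolases of 2-AG; and Faah, the hydrolase of anandamide. Together they had 76 of the 189364 transcripts that name a gene, out of 52169 gene symbols, and each gene is described by its transcript with the highest mean level.

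Endocannabinoids are lipids that a postsynaptic cell makes on demand, often after glutamate or acetylcholine has acted on receptors coupled to Gq and phospholipase C. They cross the synapse backwards to CB1 receptors on axon terminals, which act through Gi and Go proteins to lower transmitter release. The striatum is rich in CB1 receptor, which is made by its medium spiny neurons (MSNs) as well as by neurons that project to it, and a form of synaptic depression there needs both endocannabinoids and dopamine.

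The libraries came from female C57BL/6J mice in which the toxin 6-OHDA, injected into the right medial forebrain bundle, removed the dopamine input of 1 striatum (a decrease in tyrosine hydroxylase of at least 80%). All mice, in every group, carried this lesion, had received 25 mg/kg desipramine before it to spare noradrenergic neurons, and had recovered for 2 weeks. Acute mice then received L-DOPA once (10 mg/kg with 7.5 mg/kg benserazide) and chronic mice on 9 days, and were killed 1 hour later on the last day. There were 4 groups, the acute unlesioned, acute lesioned, chronic unlesioned and chronic lesioned striatum, with 3 libraries each, and no group was without L-DOPA. So an effect of the lesion cannot be told apart from the response of the lesioned side to L-DOPA. The labels speak of 12 mice, 3 for each condition, and do not say whether both sides of a mouse were used. The study describes the unlesioned side in this model as a control inside the same animal, without saying which libraries share one. P-values measure the spread between these libraries.

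The libraries held 87695043 to 173116525 counts, in which a read counts on every transcript it overlaps, and 3 counts corresponded to 0.0171 to 0.0347 CPM, the usual unit of a count scaled by library size, well under every member's level. Fosb, an immediate early gene, stood at 8.37 to 9.31 CPM in the acute unlesioned and 213 to 242 CPM in the acute lesioned libraries, and at 4.24 to 5.02 and 138 to 145 CPM after chronic treatment. All striatal markers were detected, among them Drd1a, the dopamine D1 receptor, at 62.5 to 76.0 CPM in the unlesioned libraries, and it was lower in the lesioned ones. The summed level of 6 cortical marker genes was 16.7 to 33.9 CPM in the acute unlesioned, 7.45 to 20.6 CPM in the acute lesioned, 10.5 to 44.8 CPM in the chronic unlesioned and 6.01 to 25.9 CPM in the chronic lesioned libraries. None of the 6 was at 0 in a whole group. One library stood apart: chronic unlesioned replicate 2 held 463 CPM of 3 choroid plexus markers, nearly all of it Ttr, against at most 2.65 CPM in the other two of its group. In bulk tissue, fewer cells of a type and less RNA per cell cannot be told apart.

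RefSeq promoter windows of mouse build GRCm38.p6, each 300 bases long and placed 250 bases before to 50 bases after a gene start, were found for 6 of the 8 genes (10 windows), and none was in the table for Dagla and Abhd12. They were searched on both strands for the letters of factors known to act after dopamine receptor signalling. The cAMP response element TGACGTCA and the AP-1 site TGANTCA, which Fosb protein binds as a partner of Jun proteins, were in none of the 10 windows, against 1.79% and 7.81% of all 32851 windows. The TATA box TATAAA was in none either, against 13.6% of all. The core TGACG of the cAMP response element, which is also part of its full letters, was in 1 of 10 (20.8% of all windows), and the Egr site GCGTGGGCG was in 1 of 10 (0.612% of all). The window that holds each of these is shown, with the other Mgll window, because Mgll has 2 starts side by side and its level changed. Capitals mark the core TGACG, here on the reverse strand as CGTCA and 19 bases past the start, and the Egr site, also on the reverse strand.

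Mgll upstream start, chr6:88724162-88724461, plus strand: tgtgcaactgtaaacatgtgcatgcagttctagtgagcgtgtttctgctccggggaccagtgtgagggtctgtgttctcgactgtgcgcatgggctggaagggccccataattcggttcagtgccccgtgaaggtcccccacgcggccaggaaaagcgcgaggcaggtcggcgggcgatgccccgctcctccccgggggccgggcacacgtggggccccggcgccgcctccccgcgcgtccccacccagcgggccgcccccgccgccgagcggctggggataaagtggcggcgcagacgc
Mgll downstream start, chr6:88724454-88724753, plus strand: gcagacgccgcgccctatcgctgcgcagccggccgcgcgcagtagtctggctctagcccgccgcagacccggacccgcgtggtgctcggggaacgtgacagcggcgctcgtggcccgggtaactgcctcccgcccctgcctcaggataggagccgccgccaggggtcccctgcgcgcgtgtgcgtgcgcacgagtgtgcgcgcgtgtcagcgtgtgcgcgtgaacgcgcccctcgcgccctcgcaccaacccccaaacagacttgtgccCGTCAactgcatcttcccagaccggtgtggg
Faah, chr4:116017875-116018174, minus strand: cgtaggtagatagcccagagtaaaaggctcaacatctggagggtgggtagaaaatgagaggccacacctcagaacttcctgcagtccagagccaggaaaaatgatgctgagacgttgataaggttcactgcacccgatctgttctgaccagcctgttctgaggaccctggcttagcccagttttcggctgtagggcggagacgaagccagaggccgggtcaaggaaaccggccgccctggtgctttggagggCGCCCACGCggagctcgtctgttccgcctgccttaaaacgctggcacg

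Both Mgll windows were rich in G and C (70.0% and 72.3%, median of all windows 52.7%) and held 32 and 42 CpG dinucleotides, while the Faah window was at 57.7% with 16. A match to such letters is a description of the sequence and not a measured site.

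Across the 8 genes the data showed 4 patterns. Abhd12 was higher in the chronic lesioned striatum, at 102 ± 7.5 CPM (SD, n = 3), than in the acute lesioned and the chronic unlesioned one. Mgll, at 52.7 ± 12 CPM there, was higher than in the acute lesioned striatum, while its difference from the chronic unlesioned side was not called (adjusted p = 0.092) and the libraries overlapped. Dagla and Abhd6 were lower on the lesioned side in acute mice, and in chronic mice the log2 difference of Dagla was 0.03. Daglb was 1.19-fold higher on the lesioned side after chronic L-DOPA, a call that rested on all 6 libraries, and the difference of its lesion effects was not called. Cnr1, Faah and Napepld passed the test in none of the 5 comparisons.

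**Figure D1:**
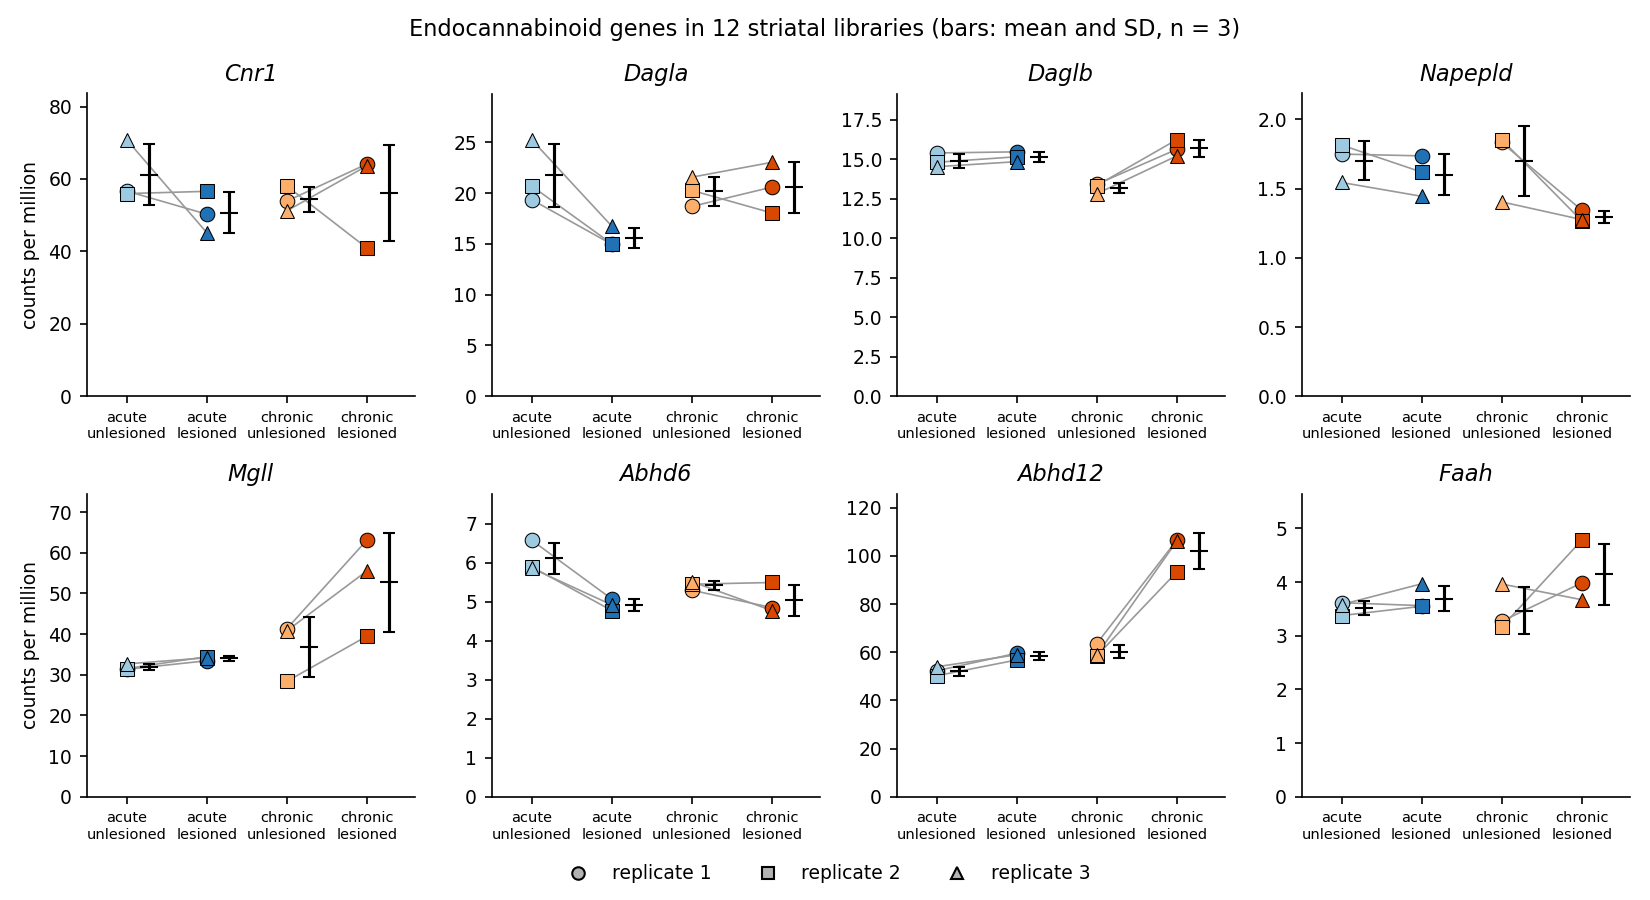
Each panel plots the level of 1 gene (CPM, from 0) in the 12 libraries by group; symbols give the replicate number, grey lines join libraries of the same number, and black bars give the mean and SD of 3. Abhd12 sits at 93.3 to 106 CPM in the chronic lesioned libraries and at 50.2 to 63.6 CPM in the other 9.

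Levels of different genes were compared per kilobase of transcript. On this scale Abhd12 was the highest in every group, with means of 26.5 to 51.8 CPM per kb. Cnr1 and Mgll followed, at 8.73 to 10.5 and 7.98 to 13.2 CPM per kb. Their libraries did not overlap in the acute unlesioned group, where Cnr1 was higher, and overlapped in the other 3 groups, where their order is not settled. Dagla (2.77 to 3.86) and Daglb (3.06 to 3.64 CPM per kb) came next. Dagla was above Daglb without overlap in the chronic unlesioned group, below it without overlap in the acute lesioned group, and overlapped with it in the other 2. Abhd6 (2.34 to 2.90), Faah (0.626 to 0.749) and Napepld (0.363 to 0.477 CPM per kb) closed the order in all 4 groups, with no overlap between neighbours. So Faah and Napepld, the 2 anandamide enzymes among the 8 genes, were below the 5 enzymes of 2-AG.

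**Figure D2:**
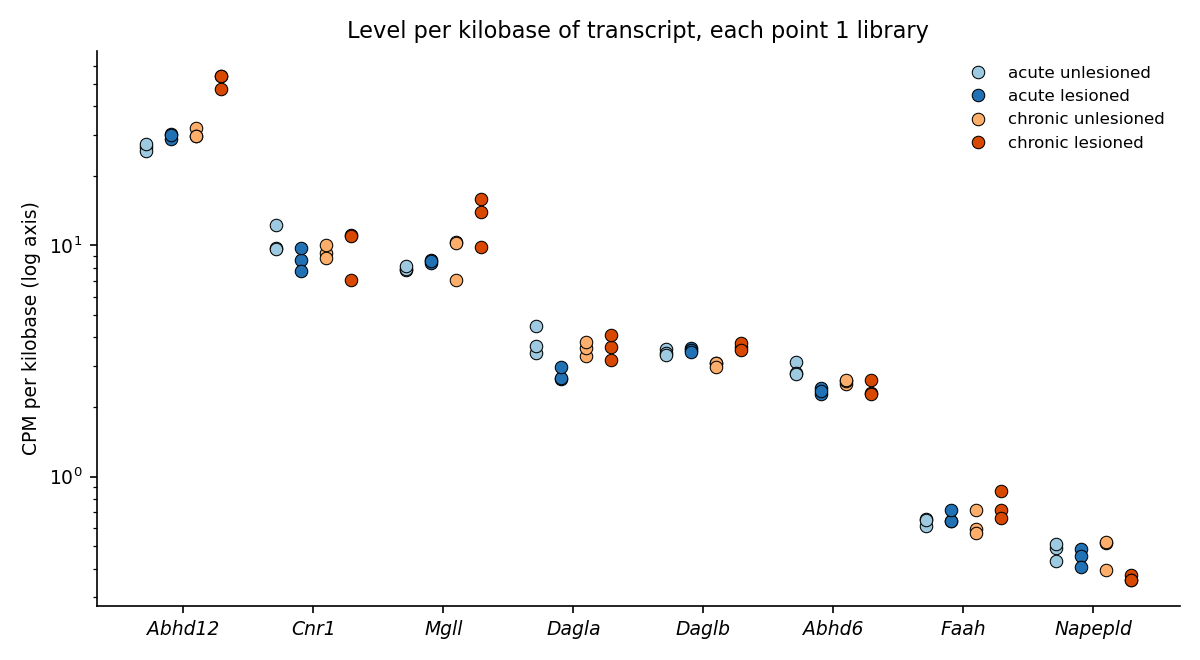
Level of each gene per kilobase of its transcript (CPM per kb, log axis), with 1 point for each of the 12 libraries and colours for the 4 groups. Abhd12 is highest and Napepld lowest in every group.

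The 4 groups gave 5 comparisons, fitted on all transcripts with edgeR's quasi-likelihood test. A transcript was called at a Benjamini-Hochberg adjusted p under 0.05. After acute L-DOPA, 2 of the 8 genes were called between lesioned and unlesioned striatum, both lower, where 12.9% of all 129674 transcripts tested were called. The median log2 fold change of the 8 was -0.03, against 0.01 over all transcripts. After chronic L-DOPA, 2 of 8 were called, both higher (12.0% of all transcripts, medians 0.15 and -0.02). Between chronic and acute lesioned striatum 3 of 8 were called, all higher (23.3% of all, medians 0.16 and -0.01). Between chronic and acute unlesioned striatum, edgeR called none of the 8 (2.61% of all transcripts). There 3 of the 8 had an unadjusted p under 0.05, and DESeq2 called 0. The difference of the lesion effects, chronic minus acute, was called for 1 of 8 (4.52% of all). With 8 genes, these shares are too coarse to set apart from the background. These comparisons share libraries, so they are not independent of each other.

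**Figure D3:**
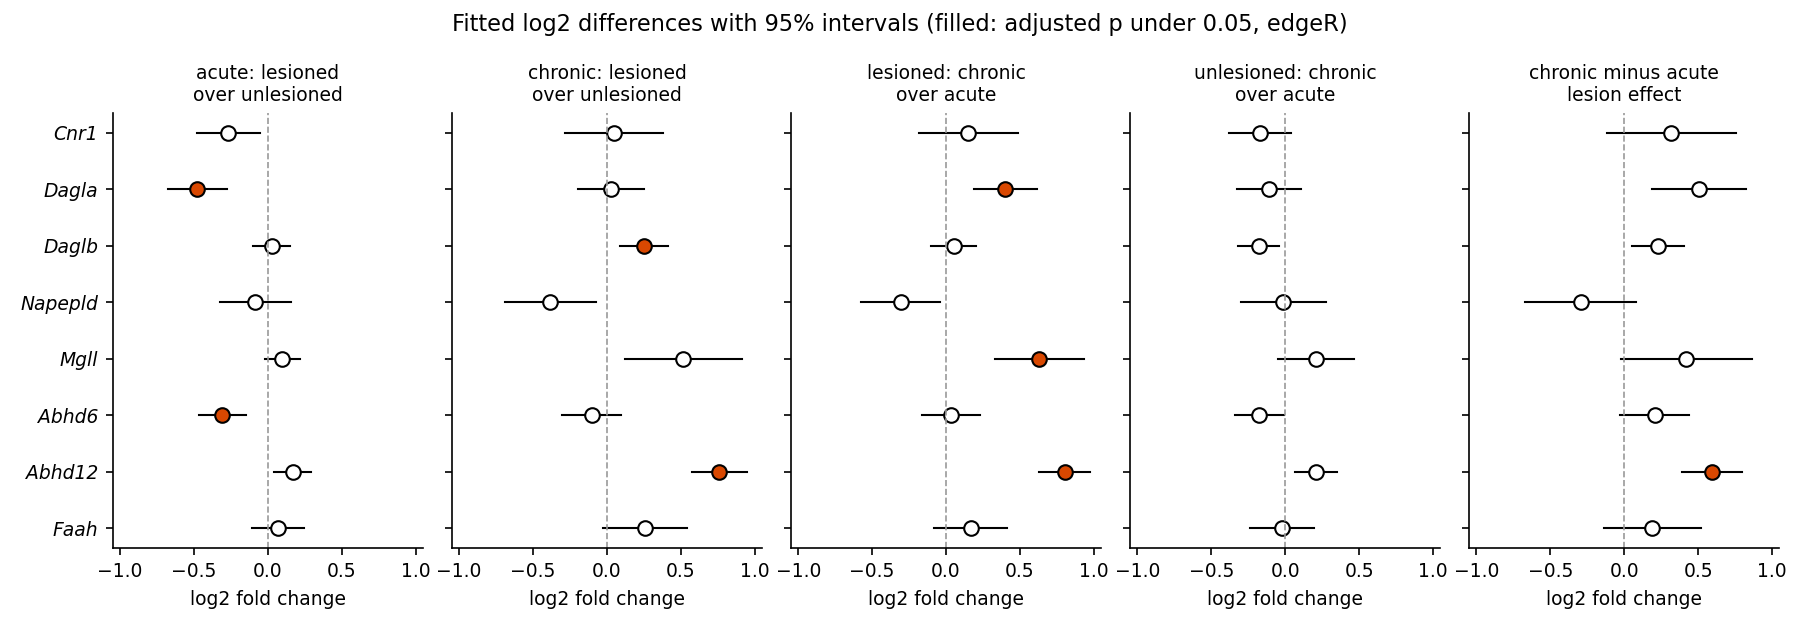
Fitted log2 differences (horizontal axis) of the 8 genes in the 4 comparisons of 2 groups and the difference of the lesion effects; lines are 95% intervals and filled points have an adjusted p under 0.05. Abhd12 is filled in 3 of the 5 panels.

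Cnr1 was read from its RefSeq transcript NM_007726 (mm9 chr4:34011607-34035806, plus strand, 2 exons). It stood at 56.7, 56.0 and 70.8 CPM in the acute unlesioned and at 50.3, 56.6 and 45.2 CPM in the acute lesioned libraries. After chronic treatment the unlesioned libraries were at 53.9, 58.0 and 51.2 CPM and the lesioned ones at 64.1, 41.0 and 63.6 CPM. All 4 groups overlapped, and 1 chronic lesioned library, replicate 2, was the lowest of the 12. The log2 fold change of the lesioned side was -0.27 (SE 0.10) after acute and 0.05 (SE 0.15) after chronic L-DOPA, with adjusted p-values of 0.0965 and 0.88. The 95% interval of the chronic value ran from -0.28 to 0.38, so a change within this range in either direction is not excluded. Without chronic lesioned replicate 2, Cnr1 was called between chronic and acute lesioned striatum (0.34, adjusted p = 0.0182) and in the difference of the lesion effects (0.51, adjusted p = 0.0474). Leaving out 1 library moved the acute value between -0.35 (without acute lesioned replicate 2, adjusted p = 0.0685) and -0.15 (without acute unlesioned replicate 3, adjusted p = 0.316), and none of these fits called it. With no filter on low counts, Cnr1 was called lower on the acute lesioned side (-0.28, SE 0.09, adjusted p = 0.0465). With the filter and all libraries, none of its 6 transcripts was called in any comparison.

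Dagla, the main 2-AG synthase of neurons in the adult brain, was read from NM_198114 (mm9 chr19:10319755-10379367, minus strand, 20 exons). It was found at 19.4, 20.7 and 25.2 CPM in the acute unlesioned libraries and at 15.0, 15.0 and 16.8 CPM in the acute lesioned ones. Every acute lesioned library was below every other library of the study, since the chronic unlesioned ones were at 18.7, 20.3 and 21.6 CPM and the chronic lesioned ones at 20.6, 18.0 and 23.0 CPM. On the log2 scale Dagla fell by 0.48 (SE 0.09) on the lesioned side after acute L-DOPA, to 0.718 of the unlesioned level (adjusted p = 0.0056), and it was lower in all 3 same-numbered pairs. This call held in all 16 alternative settings. After chronic L-DOPA the log2 difference was 0.03 (SE 0.10, adjusted p = 0.902). Between chronic and acute lesioned striatum Dagla rose 1.32-fold (log2 0.40, SE 0.10, adjusted p = 0.014), a call lost in 4 of the 6 fits that left out 1 library: without acute lesioned replicate 1 or 2, or chronic lesioned replicate 1 or 3 (adjusted p of 0.0504 to 0.0614). The difference of the lesion effects was 0.51 (SE 0.15, adjusted p = 0.0701), and blocking on the replicate number gave 0.50 (SE 0.10, adjusted p = 0.00462). Without chronic lesioned replicate 2 it was 0.60 (adjusted p = 0.0213). All 3 Dagla transcripts were called lower in the acute comparison, and in the rise between lesioned groups ENSMUST00000156361, a short one at group means of 1.20 and 1.59 CPM, did not pass (0.40, adjusted p = 0.0599).

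Daglb, the other diacylglycerol lipase, known also from microglia and macrophages, was read from ENSMUST00000145651 (mm9 chr5:144233814-144266810, plus strand, 13 exons). Its 3′ end overlaps Rac1 on the other strand, a gene at 46.5 CPM on average, and the kit did not mark strand, so reads in the overlap cannot be told apart. The acute unlesioned libraries were at 15.4, 14.8 and 14.5 CPM and the acute lesioned ones at 15.5, 15.2 and 14.8 CPM. The chronic unlesioned libraries were at 13.4, 13.3 and 12.8 CPM and the chronic lesioned ones at 15.6, 16.2 and 15.2 CPM. The chronic groups did not overlap, while the chronic lesioned libraries overlapped with the acute lesioned ones and the chronic unlesioned libraries were the lowest of the study. The chronic lesion difference was 0.25 on the log2 scale (SE 0.07, adjusted p = 0.0488), higher in 3 of 3 same-numbered pairs, and every fit that left out 1 of the 6 libraries lost the call (0.23 to 0.28, adjusted p of 0.0813 to 0.157). Rac1 itself was not called there (0.14, adjusted p = 0.285). For Daglb the difference of the lesion effects did not pass (0.23, SE 0.08, adjusted p = 0.147). The RefSeq transcript NM_144915 ends before the RefSeq transcript of Rac1 begins, though it still overlaps a shorter Rac1 cDNA. It stood at 4.75, 4.67 and 4.68 CPM in the chronic unlesioned and 6.08, 5.98 and 6.67 CPM in the chronic lesioned libraries, a log2 difference of 0.41 (SE 0.09, adjusted p = 0.0111). It was also called between chronic and acute lesioned striatum (0.31, SE 0.09, adjusted p = 0.0361), where the most abundant transcript was not (0.05, adjusted p = 0.639). Of the 10 Daglb transcripts, 6 were called higher in the chronic lesion comparison and 5 between the lesioned groups, and these transcripts share reads.

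The ratio of Dagla to Daglb per kilobase was 0.961, 1.07 and 1.33 in the acute unlesioned libraries. It was 0.740, 0.758 and 0.863 in the acute lesioned ones, all below the unlesioned side. In the chronic unlesioned libraries it was 1.06, 1.16 and 1.29 and in the chronic lesioned ones 1.01, 0.849 and 1.16, which overlapped, though it was lower on the lesioned side in 3 of 3 same-numbered pairs.

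Napepld had the lowest level of the 8, with 118 to 307 counts in a library. It was read from ENST00000414118, a gene model that carries the identifier of another species' transcript (mm9 chr5:21167880-21176607, minus strand), and its end overlaps Armc10 on the other strand (2.30 to 2.59 CPM as group means). The acute unlesioned libraries were at 1.75, 1.81 and 1.54 CPM and the acute lesioned ones at 1.74, 1.62 and 1.44 CPM, which overlapped. The chronic unlesioned libraries were at 1.83, 1.85 and 1.40 CPM and the chronic lesioned ones at 1.34, 1.27 and 1.28 CPM, without overlap. The chronic lesion difference was -0.38 (SE 0.14, adjusted p = 0.106), lower in 3 of 3 same-numbered pairs. With the replicate block it was -0.38 (SE 0.12) and passed, at an adjusted p of 0.0455. Over 16 alternatives, this block included, it was called in 3. Of these, 1 was among the 6 fits that left out a library (-0.51 to -0.31). The RefSeq transcript NM_178728 gave -0.39 (SE 0.19, adjusted p = 0.219), with libraries of both sides overlapping at 1.32 to 1.93 and 0.979 to 1.40 CPM. All 9 Napepld transcripts had values below 0 in this comparison (-0.59 to -0.17), none was called, and they share reads.

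Mgll, monoacylglycerol lipase, which ends most 2-AG signalling in the brain, was read from NM_001166251 (mm9 chr6:88674698-88778354, plus strand, 8 exons). Acute libraries lay close together, at 31.4, 31.5 and 32.7 CPM on the unlesioned and 33.5, 34.5 and 34.2 CPM on the lesioned side. The chronic libraries spread widely: the unlesioned ones were at 41.3, 28.4 and 40.8 CPM and the lesioned ones at 63.1, 39.5 and 55.5 CPM. Replicate 2 was the lowest on both sides, and its lesioned library lay under the 2 higher unlesioned ones, so the chronic groups overlapped. Within each same-numbered pair the lesioned library was higher, by 0.61, 0.48 and 0.45 on the log2 scale. Fitted without regard to the pairs, the difference was 0.52 (SE 0.18, adjusted p = 0.092). With the replicate block it was 0.51 (SE 0.06, adjusted p = 0.00011), and the block also carried the difference of the lesion effects (0.42, SE 0.08, adjusted p = 0.00345, against 0.295 without it). Leaving out 1 library moved the chronic value between 0.36 and 0.70 and the difference of the effects between 0.27 and 0.60, and each was called in 1 of these fits, without chronic lesioned replicate 2 (adjusted p of 0.00895 and 0.0377). The lowest values came without chronic unlesioned replicate 2 (0.36, adjusted p = 0.188, and 0.27, adjusted p = 0.475), and without chronic lesioned replicate 1 they were 0.37 (adjusted p = 0.278) and 0.27 (adjusted p = 0.546). With the cortical covariate the chronic value was 0.81 (adjusted p = 0.0117). The deviations of same-numbered libraries go together in these data, as the processing section states, and the labels do not say that they came from 1 mouse. From acute to chronic lesioned striatum Mgll rose 1.55-fold (log2 0.63, SE 0.14, adjusted p = 0.00853), with no overlap of libraries, and this call held in all 16 alternatives. All 17 Mgll transcripts were called there, at 0.52 to 0.70. Leaving out chronic unlesioned replicate 2, the library with choroid plexus RNA, raised the chronic over acute unlesioned difference of Mgll from 0.21 (adjusted p = 0.338) to 0.36 (adjusted p = 0.0043).

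Abhd6, a 2-AG hydrolase of the postsynaptic side, was read from ENSPTRT00000028187, a model with a chimpanzee identifier (mm9 chr14:8860757-8889225, plus strand), whose values stood close to those of the mouse transcript NM_025341. The acute unlesioned libraries were at 6.58, 5.90 and 5.86 CPM and the acute lesioned ones at 5.07, 4.78 and 4.92 CPM, with no overlap. The chronic unlesioned libraries were at 5.30, 5.45 and 5.52 CPM and the chronic lesioned ones at 4.85, 5.49 and 4.78 CPM, which overlapped. On the log2 scale Abhd6 fell by 0.31 (SE 0.07) on the lesioned side after acute L-DOPA, to 0.807 of the unlesioned level (adjusted p = 0.0167), lower in 3 of 3 pairs. The chronic value was -0.10 (SE 0.09, adjusted p = 0.524), and the difference of the effects did not pass (0.21, SE 0.11, adjusted p = 0.328). NM_025341 gave -0.30 (adjusted p = 0.0162) in the acute comparison, and 6 of 11 transcripts were called. The acute call was lost without acute unlesioned replicate 1 (-0.25, adjusted p = 0.0761) and without acute lesioned replicate 2 (-0.29, adjusted p = 0.0626).

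The fall of Dagla and of Abhd6 went with lower cortical marker levels on the lesioned side in all 3 acute pairs, where 1 of the 6 markers was called lower and 1 higher. The mean level of these markers was lower on the lesioned side in all 3 chronic pairs too, with none of the 6 called. There Dagla was at 0.03 and Abhd6 at -0.10, and neither was called. With the mean level of these markers as a covariate in the acute comparison, Dagla was at -0.59 (SE 0.10, adjusted p = 0.00159) and Abhd6 at -0.22 (SE 0.08, adjusted p = 0.0897). The summed level of 5 markers of D1 MSNs was also lower, at 174 to 187 CPM on the unlesioned and 132 to 144 CPM on the lesioned side, with 4 of the 5 called lower and 1 higher. That of 5 markers of D2 MSNs was higher, at 510 to 601 and 874 to 946 CPM, with all 5 called. Of 5 markers of striatal neurons in general, 3 were called lower by like amounts (Rgs9 -0.36, Bcl11b -0.39 and Foxp1 -0.36) and Gad1 higher, with sums of 797 to 1010 and 739 to 833 CPM that overlapped. The astrocyte markers summed to 511 to 567 CPM on the acute unlesioned and 569 to 730 CPM on the acute lesioned side, with 2 of 6 called higher (Gfap and Gja1). The microglial markers summed to 50.6 to 53.4 and 55.2 to 66.8 CPM, with 1 of 5 called higher (C1qa, 0.47), and 1 of 5 oligodendrocyte markers was called higher. The part of the MSN, striatal and glial markers in the fall of Dagla and Abhd6 was not tested.

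Abhd12, a 2-AG hydrolase that is also the main lipase of lysophosphatidylserine and is known from microglia, was read from AK160126 (mm9 chr2:150658253-150730467, minus strand, 13 exons). The acute unlesioned libraries were at 52.3, 50.2 and 54.0 CPM and the acute lesioned ones at 59.6, 56.8 and 58.9 CPM. The chronic unlesioned libraries were at 63.6, 58.4 and 58.8 CPM and the chronic lesioned ones at 106, 93.3 and 106 CPM. The chronic lesioned libraries stood clear of all others, and the acute groups did not overlap either. Abhd12 rose 1.69-fold on the lesioned side after chronic L-DOPA (log2 0.76, SE 0.08, adjusted p = 0.00021), and was higher by 0.67 to 0.85 in the 3 same-numbered pairs. After acute L-DOPA the difference was 0.17 (SE 0.06, adjusted p = 0.0738), higher in 3 of 3 pairs at 0.13 to 0.19, and it passed with the replicate block (0.17, SE 0.05, adjusted p = 0.0329). The microglial and astrocyte sums given above for the acute libraries were also higher on the lesioned side, without overlap. The difference of the lesion effects was 0.59 (SE 0.10, adjusted p = 0.00185). From the acute to the chronic lesioned group Abhd12 rose 1.75-fold (log2 0.80, SE 0.08, adjusted p = 7.75e-05). Between the unlesioned sides it was 1.16-fold higher after chronic L-DOPA, a difference that did not pass (log2 0.21, SE 0.07, adjusted p = 0.106) and that did without chronic unlesioned replicate 2 (0.23, adjusted p = 0.0499). All 8 Abhd12 transcripts were called higher in the chronic lesion comparison (0.72 to 0.81), between the lesioned groups (0.75 to 0.99) and in the difference of the effects (0.57 to 0.80). These 3 calls held in every alternative tried (16, 16 and 21).

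A cDNA on the other strand, AK031569, lies inside Abhd12 and stood at 8.55, 9.72, 10.3 and 16.4 CPM as means of the acute unlesioned, acute lesioned, chronic unlesioned and chronic lesioned groups. It was called higher in the chronic lesion comparison too (0.67, adjusted p = 0.00244), and without strand its reads cannot be told apart from those of Abhd12. The summed level of 5 microglial markers was 37.2 to 47.3 CPM in the chronic unlesioned and 38.2 to 47.4 CPM in the chronic lesioned libraries, and none of the 5 was called. In the chronic lesioned libraries the D1 MSN markers summed to 295 to 344 CPM against 170 to 211 CPM on the unlesioned side, with 2 of 5 called higher and 2 lower. The highest of these was Pdyn, the dynorphin precursor, at 178 to 194 CPM against 24.8 to 39.3 CPM. Drd1a and Chrm4 were the 2 lower, at means of 28.0 against 70.1 and 18.1 against 27.4 CPM. The 5 D2 MSN markers summed to 801 to 1065 and 505 to 541 CPM, with 2 called higher. Most of that sum was Penk, called higher at means of 784.5 against 362.2 CPM, and the other was Sp9 (1.94-fold). Drd2, Adora2a and Gpr6 were at 1.07, 1.02 and 1.06-fold and were not called. Between chronic and acute lesioned striatum, 3 of the 5 microglial and 5 of 5 oligodendrocyte markers were called lower. In that comparison 4 of the 5 D1 MSN markers were called higher (Drd1a 1.06, Pdyn 3.35, Chrm4 0.99 and Isl1 1.13). Of the 5 D2 MSN markers 3 were called lower there (Drd2 -0.46, Adora2a -0.60 and Gpr6 -0.64). The 6 astrocyte markers summed to 510 to 599 CPM in the chronic unlesioned and 607 to 637 CPM in the chronic lesioned libraries, with 1 called, Gfap, which was 3.90-fold higher (adjusted p = 0.000445). From the acute to the chronic lesioned group 3 of the 6 were called lower. Of the 5 general striatal markers, Gad1, an enzyme of GABA synthesis, was called higher on the chronic lesioned side (0.95, adjusted p = 0.00061), from the acute to the chronic lesioned group (0.80, adjusted p = 0.000269) and in the difference of the effects (0.68, adjusted p = 0.0154), while the sums of the 5 overlapped (871 to 945 and 750 to 961 CPM). Of 6 interneuron markers, Npy and Sst were called higher on the chronic lesioned side (0.81 and 0.33), with sums of 65.6 to 78.3 and 77.8 to 88.1 CPM. Cck, Vip, Pvalb and Chat were lower there (-1.51, -1.11, -0.61 and -0.31) and were not called. The part of these markers in the rise of Abhd12 was not tested.

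Faah was read from ENSMUST00000154249 (mm9 chr4:115669274-115690321, minus strand, 12 exons). It stood at 3.62, 3.38 and 3.58 CPM in the acute unlesioned libraries and at 3.56, 3.55 and 3.97 CPM in the acute lesioned ones. Chronic unlesioned libraries were at 3.27, 3.16 and 3.96 CPM and the chronic lesioned ones at 3.99, 4.78 and 3.67 CPM. The libraries overlapped in each of the 4 comparisons of 2 groups. The lesion difference was 0.07 (SE 0.08, adjusted p = 0.606) in the acute and 0.26 (SE 0.13, adjusted p = 0.239) in the chronic mice, where its 95% interval ran from -0.03 to 0.54. None of the 12 Faah transcripts was called in any comparison.

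Among the 3 hydrolases of 2-AG, Abhd12 made up most of the mRNA per kilobase. Its share was 70.5% to 71.4% in the acute unlesioned and 72.6% to 73.7% in the acute lesioned libraries. After chronic L-DOPA it was 70.0% to 75.4% on the unlesioned and 74.9% to 79.1% on the lesioned side, which overlapped. The share of Abhd6 was 7.25% to 8.32%, 5.71% to 5.87%, 5.57% to 6.57% and 3.19% to 4.36% in the same order of groups, and the lesioned libraries of each treatment lay below the unlesioned ones. A share also moves with the other hydrolases: after chronic L-DOPA the level of Abhd6 itself was not called lower and its libraries overlapped, while Abhd12, the largest term of the sum, rose. The share of Mgll overlapped between the sides, at 20.9% to 21.8%, 20.4% to 21.7%, 18.1% to 23.9% and 16.5% to 21.9%. Within same-numbered pairs the share of Mgll was lower on the lesioned side in all 6, and the chronic share of Abhd12 was higher in 3 of 3. These are shares of mRNA and not of enzyme activity.

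**Figure D4:**
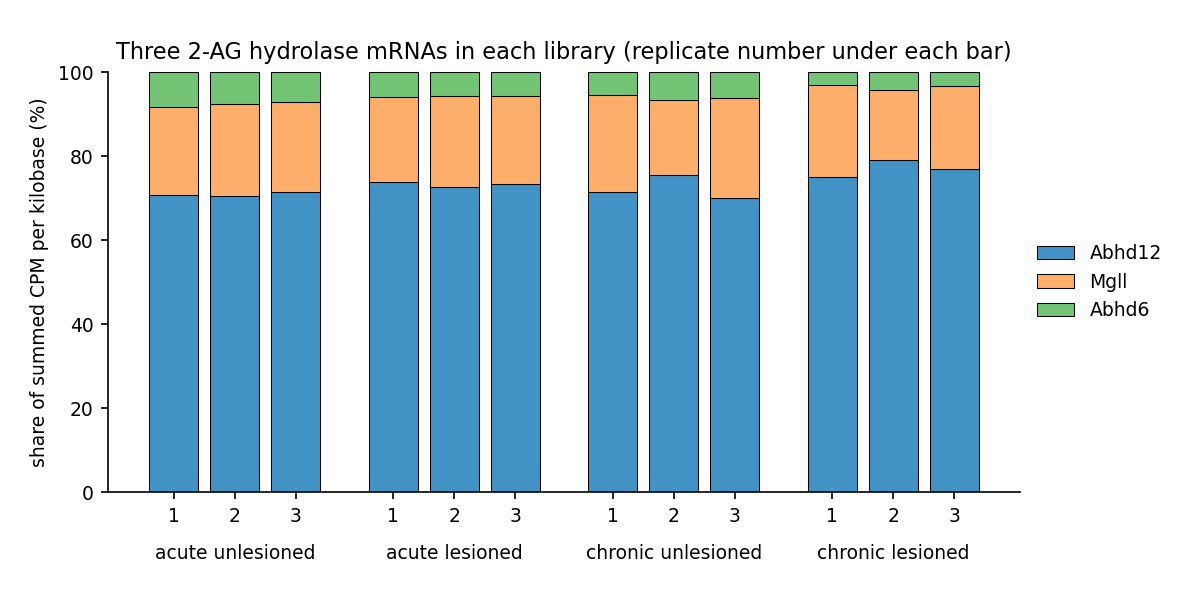
Each bar is 1 library and shows the shares of Abhd12, Mgll and Abhd6 in their summed level per kilobase (percent, from 0). The share of Abhd6 is lowest, at 3.19% to 4.36%, in the 3 chronic lesioned libraries. There the CPM level of Abhd12, not drawn here, was highest, while its share overlapped with the chronic unlesioned side. The level of Abhd6 itself was not called different from the unlesioned side.

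A further 28 genes of the pathway, listed by role, gave the setting of these values. Of 25 tested in the acute lesion comparison 5 were called higher and 4 lower, and of 24 in the chronic one 3 higher and 4 lower, where 12.9% and 12.0% of all transcripts were called. Between chronic and acute lesioned striatum 3 of 24 were higher and 5 lower, between the unlesioned sides 2 of 25 were higher and 1 lower, and in the difference of the effects 1 of 24 was higher and 1 lower (23.3%, 2.61% and 4.52% of all transcripts). These few genes are not set apart from that background here. Gpr18, Trpv1 and Hrasls5 were too low to test in any comparison. Cnr2, the CB2 receptor, was tested in 2 comparisons, with group means of 0.0642 to 0.0877 CPM in the groups they used.

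Of the 6 receptors and receptor partners, 4 were tested in the acute and 3 in the chronic lesion comparison, and none was called in either. Sgip1, which holds the CB1 receptor at the cell surface, was at 31.4 to 34.5 CPM in the acute lesioned and 38.9 to 45.7 CPM in the chronic lesioned libraries, and rose by 0.33 on the log2 scale (SE 0.08, adjusted p = 0.0162). A cDNA on the other strand, at 2.57 CPM, overlaps its span. Cnrip1, another protein that binds the receptor, was at 4.90 to 5.64 CPM as group means and was not called. Gpr55, a receptor for lysophospholipids, was at 0.475 to 0.622 CPM and was not called.

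Upstream of Dagla, the Gq-coupled receptors Chrm1 and Grm5 fell on the lesioned side after acute L-DOPA. Chrm1, the muscarinic M1 receptor, stood at 34.9 to 40.1 CPM on the unlesioned and 24.9 to 26.6 CPM on the lesioned side (log2 -0.54, SE 0.06, adjusted p = 0.000204). Grm5, the metabotropic glutamate receptor mGluR5, stood at 62.0 to 69.5 and 47.4 to 49.0 CPM (-0.43, SE 0.06, adjusted p = 0.000749). After chronic L-DOPA, Chrm1 was again called lower (-0.44, SE 0.08, adjusted p = 0.00671). Grm5 had a like value with a wider error (-0.41, SE 0.13, adjusted p = 0.0665). The difference of the lesion effects passed for neither (adjusted p of 0.624 and 0.968). The G proteins Gnaq and Gna11 were at -0.12 to 0.06 in both lesion comparisons and were not called.

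Of the 7 genes of synthesis, 6 were tested. Plcb1, the phospholipase C that Gq activates to make diacylglycerol, fell by 0.35 (SE 0.08, adjusted p = 0.00973) on the acute lesioned side, from 64.6 to 71.7 CPM to 46.6 to 55.2 CPM, and its span overlaps a cDNA on the other strand at 1.98 CPM. Abhd4 and Gde1 act in turn on a second route to anandamide. Abhd4 rose by 0.43 (SE 0.09, adjusted p = 0.0119) on the acute lesioned side, where the libraries were at 16.6 to 22.5 CPM, and was lower in the chronic than the acute lesioned striatum (-0.52, SE 0.12, adjusted p = 0.0111). Gde1 rose by 0.33 (SE 0.09, adjusted p = 0.0321) on the chronic lesioned side, to 38.6 to 42.5 CPM. Pla2g4e, an acyltransferase that makes anandamide precursors, was at 0.278 to 1.04 CPM over the 12 libraries and rose 2.03-fold on the lesioned and 2.05-fold on the unlesioned side from acute to chronic L-DOPA (adjusted p of 0.0133 and 0.0288).

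All 6 genes of breakdown and binding were tested. Ptgs2 (COX-2), which oxygenates 2-AG and anandamide and is an immediate early gene of neurons, showed the largest change among these 28 genes. It stood at 0.570, 2.38 and 0.502 CPM in the acute unlesioned and 4.21, 8.34 and 4.60 CPM in the acute lesioned libraries. In the chronic unlesioned libraries it was at 0.746, 0.351 and 0.860 CPM and in the chronic lesioned ones at 20.4, 15.0 and 19.3 CPM. It rose on the lesioned side by 2.32 (SE 0.45, adjusted p = 0.0058) after acute and 4.79 (SE 0.24, adjusted p = 5.04e-07) after chronic L-DOPA on the log2 scale. Naaa, a lysosomal hydrolase of acylethanolamides, was at 5.36 to 6.11 CPM on the acute unlesioned and 6.73 to 7.07 CPM on the acute lesioned side, and at 5.56 to 6.77 and 3.98 to 4.53 CPM after chronic L-DOPA. It rose by 0.29 (SE 0.07, adjusted p = 0.021) in the acute and fell by 0.55 (SE 0.10, adjusted p = 0.00665) in the chronic lesion comparison. Fabp5 and Fabp3, fatty acid binding proteins that carry anandamide inside cells, were lower on the lesioned than the unlesioned side after chronic L-DOPA (-0.60, SE 0.12, adjusted p = 0.00716, and -0.56, SE 0.14, adjusted p = 0.0253). For Fabp5 the unlesioned side rose from acute to chronic L-DOPA, from a mean of 3.85 to 5.43 CPM (0.50, adjusted p = 0.0239). Its lesioned side was at 3.36 and 3.57 CPM (0.09, adjusted p = 0.568), and the difference of its lesion effects did not pass (-0.40, adjusted p = 0.126). The last 81 bases of the Fabp3 span overlap Zcchc17 on the other strand.

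**Figure D5:**
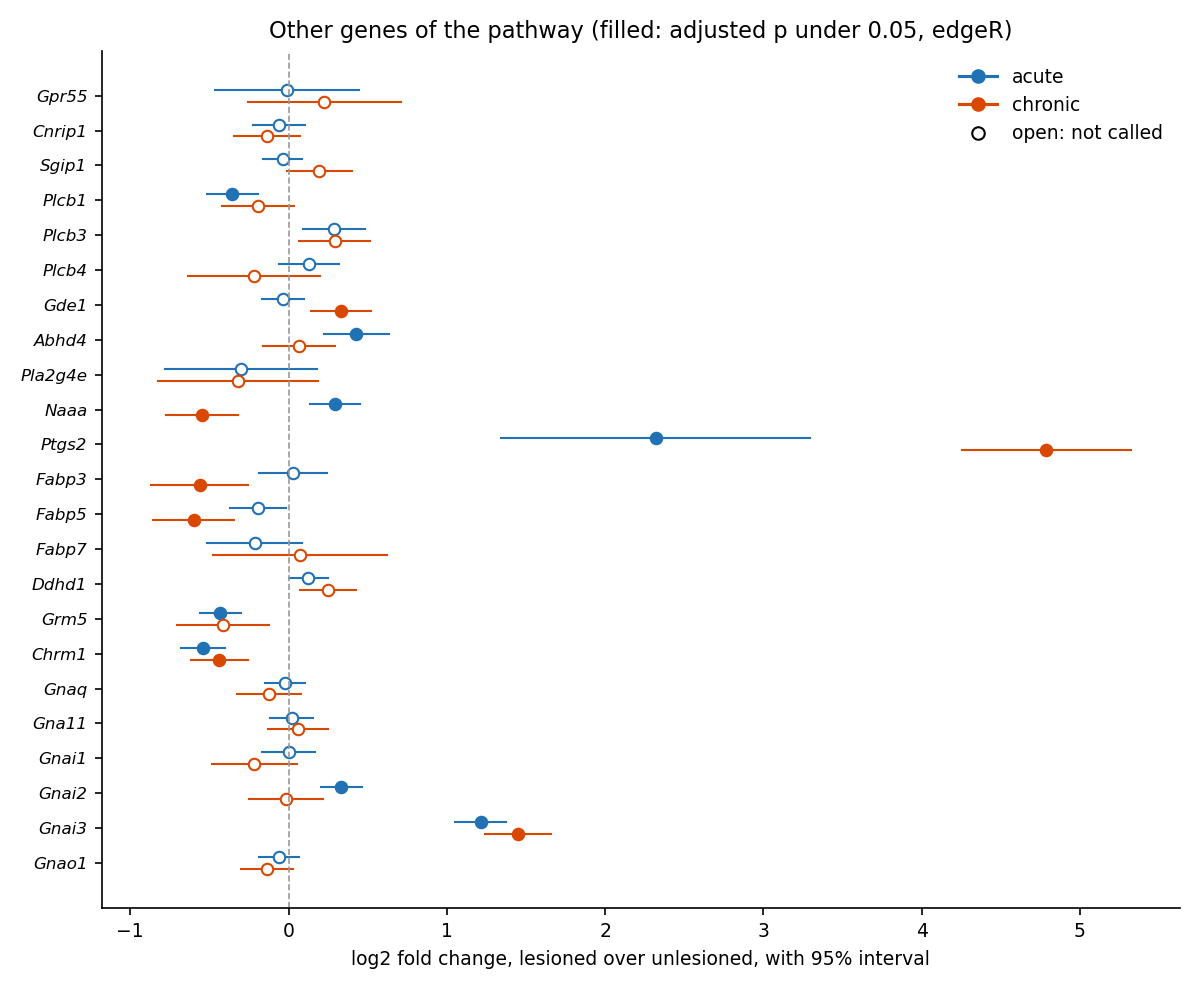
Log2 fold change of the lesioned over the unlesioned side (horizontal axis, with 95% intervals) after acute and chronic L-DOPA for pathway genes tested in both; filled points have an adjusted p under 0.05. Ptgs2 lies farthest to the right, at 2.32 and 4.79.

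Of the 4 Gi and Go proteins that the CB1 receptor uses, Gnai3 changed most. It stood at 7.63, 7.33 and 6.42 CPM in the acute unlesioned and at 16.9, 16.8 and 15.9 CPM in the acute lesioned libraries. The chronic unlesioned libraries were at 7.06, 7.57 and 6.58 CPM and the chronic lesioned ones at 17.9, 21.4 and 18.6 CPM. It rose 2.32-fold (log2 1.22, SE 0.07, adjusted p = 4.84e-07) and 2.73-fold (log2 1.45, SE 0.10, adjusted p = 4.15e-06) on the lesioned side. Gnai2 rose by 0.33 (SE 0.06, adjusted p = 0.00339) on the acute lesioned side and was at -0.02 in the chronic comparison, and the difference of its lesion effects did not pass (-0.35, SE 0.12, adjusted p = 0.137). Gnao1, the most abundant of the 4 at 114 to 154 CPM, and Gnai1 were called in neither lesion comparison, and both, like Gnai2, were lower in the chronic than in the acute lesioned striatum (-0.28, -0.38 and -0.42).

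For each called gene, the 3 genes were found whose level over the 12 libraries followed it most closely. Likeness was the root mean square difference of log2(CPM + 0.5) after centring, among 12793 genes with a mean of at least 1 CPM. For Abhd12 they were Mllt11 (0.059), LOC100504029 (0.067), which overlaps Mllt11, and Npy (0.074), against a spread of Abhd12 itself of 0.37. Npy, the neuropeptide Y gene of a class of striatal interneurons, was called higher on the chronic lesioned side (0.81, SE 0.09, adjusted p = 0.000224), as was Abhd12. Since Npy was picked here for a profile like that of Abhd12, this shared direction follows from the choice. For Mgll they were Dab1, Phactr1 and Rab27b (0.112, 0.121 and 0.121, spread of Mgll 0.33). For Dagla they were B3galt6 (0.073), Cplx2 (0.077) and a gene on chromosome 1 whose symbol stands in the table as a date (0.08), against a spread of 0.215. For Abhd6 they were Chac2, Rnf146 and Hif1an (0.054, 0.056 and 0.061, spread 0.125), and for Daglb AK048215, Nudt5 and G3bp2 (0.035, 0.04 and 0.041, spread 0.096), of which AK048215 overlaps G3bp2.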

How the data were processed

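RNA of striatal punches was sequenced from 12 libraries, 3 in each of 4 groups, with a kit that does not mark strand. The authors mapped reads to mm9 with the Genomatix Mining Station and deposited raw counts per transcript, so overlapping transcripts share reads. Whether counting used strand is not given in the sources used here. The deposited normalized expression, a signal the authors scaled by transcript length and library size, served only to check the counts. The authors' comparison tables (DESeq fold changes and p-values) and their 36 repeated per-library columns were not used. Rows that name no gene (296, 0.0485% of counts) were left out.

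Counts were filtered with filterByExpr, scaled by TMM and tested with edgeR 4.0.16 (quasi-likelihood, two-sided) in R 4.3.3, with 6 libraries for each comparison of 2 groups and all 12 for the difference of the lesion effects. P-values were adjusted by Benjamini-Hochberg over all transcripts tested, and SE is the absolute log2 fold change over the root of F. CPM are TMM-scaled over the 12 libraries. With 3 against 3, an exact permutation test cannot go below p = 0.1, so none is given. Alternatives were DESeq2 1.42.0, its size factors, no filter on low counts, other transcripts or their sum, all 12 libraries, the replicate block, leaving out each library and, added after seeing the data, a GC and length trend and a cortical covariate. Scripts were tested on simulated data, and Python 3.11.15 and matplotlib 3.10.9 drew the figures.

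Same-numbered libraries of both sides deviated together over 12794 genes (r of 0.478, 0.444 and 0.39 for acute and 0.519, 0.566 and 0.153 for chronic numbers 1, 2 and 3). Chronic lesioned 1 and unlesioned 3 had r = 0.155, as high as the matched number 3, while the other unmatched r were at most 0.087. The pairing is read from the data and is not stated by the labels.

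The 8 genes and the gene lists were chosen with earlier results of these data known. Each gene is named by its transcript of highest mean CPM, and other transcripts where their call differs or the mouse RefSeq transcript stands beside a model of another species. Pathway genes past the test are named, up to 4 a list by adjusted p, with further ones chosen after their values were seen (Cnrip1, Gpr55, Gnaq, Gna11, Pdyn). Like patterns are the 3 nearest genes, and Fosb and Drd1a checked response and tissue. One gene of the pathway lists stands in the counts over the lists and is not reported here.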

Additional observations from a re-analysis of the deposited data

Results flagged for a closer look

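The lesion effect differed between chronic and acute L-DOPA, by edgeR's test of the difference itself, for 1 of the 8 genes and 2 of the other pathway genes. In the marker lists it was also called for Pdyn (3.26, adjusted p = 1.05e-07), Drd1a (0.98, adjusted p = 0.00507), Npy (0.65, adjusted p = 0.00199), Gad1 (0.68, adjusted p = 0.0154), Chrm4 (1.15, adjusted p = 0.00103), Isl1 (0.92, adjusted p = 0.00636) and Gpr6 (-0.54, adjusted p = 0.0183). For Abhd12 the chronic minus acute difference was 0.59 on the log2 scale (SE 0.10, adjusted p = 0.00185). For Ptgs2 it was 2.47 (SE 0.64, adjusted p = 0.0418), and 1 acute unlesioned library, replicate 2, stood at 2.38 CPM against 0.570 and 0.502 CPM in the other two. For Naaa it was -0.84 (SE 0.12, adjusted p = 0.00102), with lesion effects of opposite sign, 0.29 after acute and -0.55 after chronic L-DOPA.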

How the results depend on the processing

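Of 680 values of the 8 genes under the alternatives, 613 kept their direction and call, 18 lost and 21 gained a call. Another 28, uncalled in both fits, moved by at least the SE of the main fit or changed sign. No called value changed sign. The number of the 8 called in the acute lesion comparison (2) was 3 with the replicate block, 3 with no filter (Cnr1 added), 1 with the cortical covariate and 1 to 2 on leaving out a library (1 without acute unlesioned replicate 1 or acute lesioned replicate 2). In the chronic one (2) it was 1 with no filter, 1 with the GC and length trend removed, 4 with all 12 libraries, 4 with the replicate block and 1 to 2 on leaving out a library (1 without chronic unlesioned replicate 1 or 2, or chronic lesioned replicate 1 or 3). Between unlesioned sides (0) it was 1 with the GC and length trend removed and 0 to 2 on leaving out a library (2 without chronic unlesioned replicate 2). For the difference of the lesion effects (1) it was 2 with DESeq2, 2 with the trend removed, 3 with the replicate block and 1 to 4 on leaving out a library (4 without chronic lesioned replicate 2). The replicate block gave 28237, 27505 and 15875 calls over all transcripts in the acute, chronic and difference fits, against 16684, 15295 and 5911, and it changed no call of the 8 genes beyond those given above. With no filter and with DESeq2 the unlesioned comparison gave 5821 and 6278 calls against 3366, and in the chronic one all 12 libraries gave 22946 and the cortical covariate 9886. Leaving out a library gave 9547 to 15328 calls in the acute, 9137 to 14864 in the chronic, 16025 to 36534 between lesioned and 66 to 14377 between unlesioned groups (highest without chronic unlesioned replicate 2), and 3794 to 9536 for the difference. Over 1 transcript a gene, the trend correction moved the chronic split from 1299 higher and 856 lower to 1347 and 1250, and the unlesioned one from 166 and 263 to 338 and 337. The cause of these changes was not tested. Depth limits Napepld most, at 118 to 307 counts a library.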
